A study of Mus musculus with 110 samples.

Results

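Interscapular brown adipose tissue (iBAT) of mice on the control diet was compared between 24 h of cold exposure at 4 °C (Ctrl_CE, n = 7) and room temperature at 22 °C (Ctrl_RT, n = 6). These 13 libraries, chosen by tissue and by the group named in the sample title, are part of 110 in the series. The animals were wild-type male C57BL/6N mice, single-housed and 16 weeks old at the end, and every replicate came from a different mouse. All 13 mice ate a diet without cysteine and with 0.86% methionine for 7 days at 22 °C, and the Ctrl_CE mice stayed on it through the added cold day, so their time on the diet was longer. The title placed Ctrl_CE replicate 1, whose treatment tag names another group. The study's methods leave out a Ctrl_CE library of iBAT without naming it, and each count was repeated without Ctrl_CE replicate 5. The 14 iBAT libraries of mice on a methionine-restricted diet (MetR, 0.12% methionine, at room temperature or in the cold) entered the fit to share the estimate of the spread and served for the test of the diet by temperature interaction. The inguinal white fat (iWAT) of the control-diet mice, 14 libraries, served as the depot for comparison.

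Brown adipocytes burn fatty acids and glucose to make heat, and they hold many lipid droplets and mitochondria. In the cold, sympathetic nerves release noradrenaline onto beta-adrenergic receptors, cAMP rises, protein kinase A starts lipolysis, and the released fatty acids both fuel and open uncoupling protein 1 (UCP1), which lets protons back across the inner mitochondrial membrane without making ATP. Housing at 22 °C lies below the thermoneutral range of mice, so brown fat is already active in mice kept at room temperature, and the comparison is between mild and strong cold.

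Total counts ran from 22536731 to 27806620 in Ctrl_RT (median 24637427) and from 16621428 to 31232349 in Ctrl_CE (median 23405414). Of 23993 genes tested with edgeR's quasi-likelihood test, 3572 were differentially expressed genes (DEGs), with a Benjamini-Hochberg adjusted p under 0.05 and a change of at least 1.5-fold in either direction. They were 14.9% of the genes tested. The 1190 upregulated genes were 4.96% and the 2382 downregulated genes 9.93%, and the median log2 fold change (log2FC) of all genes was -0.08. The normalized levels, in CPM (counts scaled to library size), did not overlap between the groups for 14.3% of the genes tested, and for 1721 of the DEGs. Among the 12774 genes with a mean of at least 1 CPM there were 2130 DEGs, 868 higher and 1262 lower in the cold. Without Ctrl_CE replicate 5 there were 3516 DEGs, 1190 higher and 2326 lower. A change of 4-fold or more was found for 54 upregulated and 53 downregulated genes, so that most changes were smaller.

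The labelled tissue was checked against cell type markers, and the brown adipocyte gene Ucp1 stood between 5820 and 14100 CPM in every library. The summed level of 10 adipocyte markers ran from 28200 to 32400 CPM in Ctrl_RT and from 37700 to 46100 in Ctrl_CE, with Lpl called higher and Adipoq called lower among them. Skeletal muscle transcripts varied widely in both groups, from 38.4 to 2720 CPM summed over 20 markers in Ctrl_RT and from 40.1 to 2070 in Ctrl_CE. They were low in Ctrl_RT 2 and 4 and in Ctrl_CE 1, 4 and 7. With this muscle score as a covariate 3616 genes were called, and 1 muscle marker, the oxygen carrier Mb, was higher in the cold in either fit (log2FC 1.87 ± 0.55, SE). The liver transcript Alb was at 38.2 CPM in Ctrl_RT 5 and at no more than 2.66 in the other 12 libraries.

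**Figure D1:**
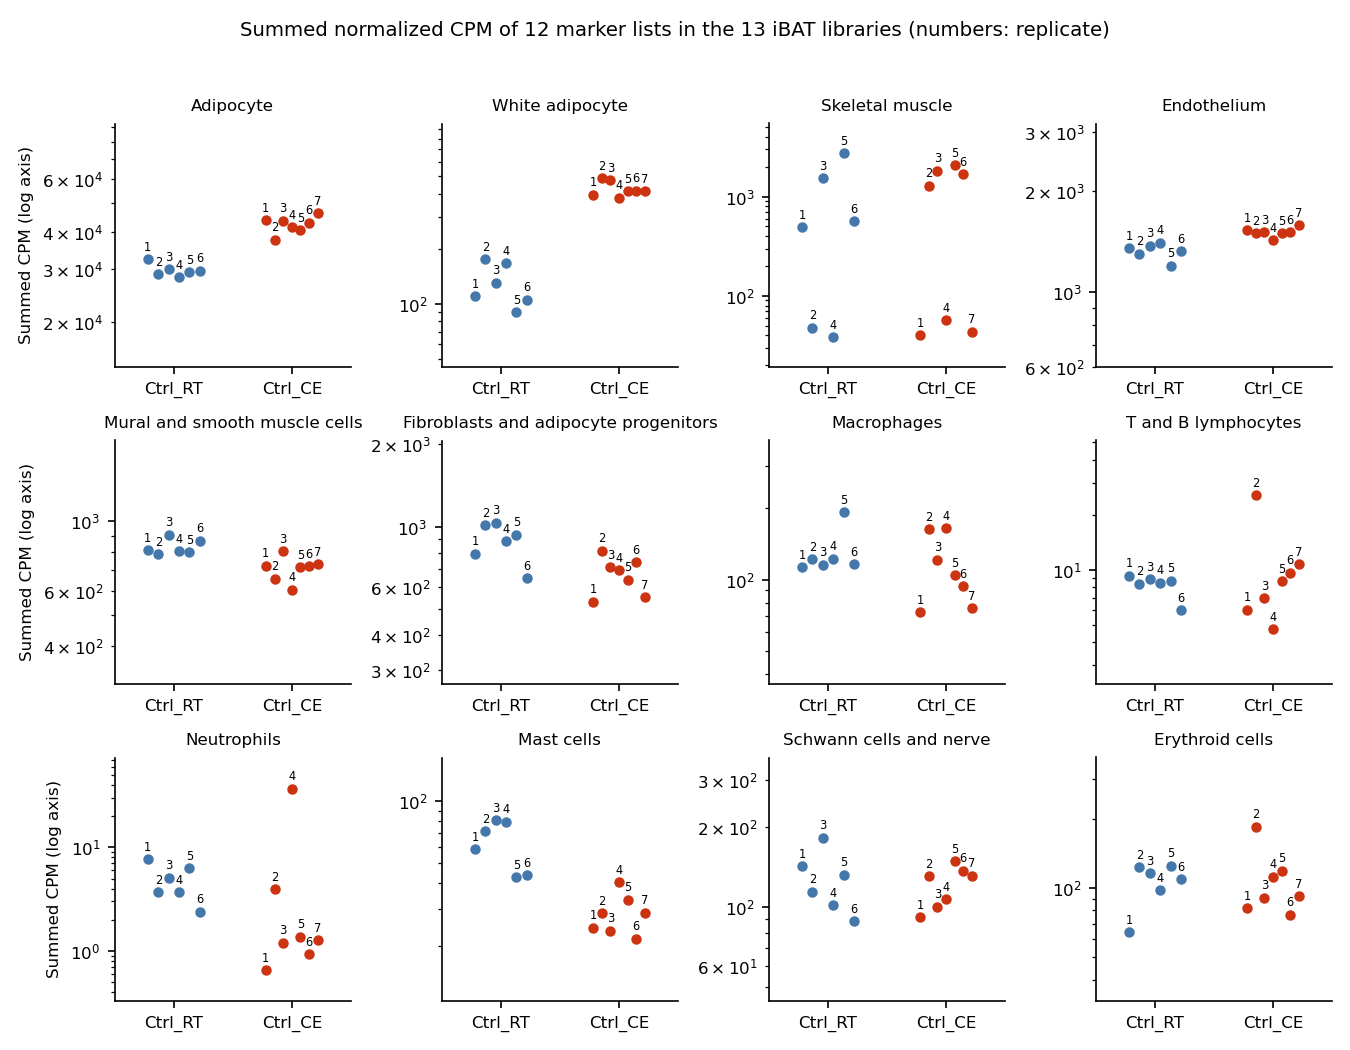
Summed normalized CPM (log axis) of the markers of 12 cell types in each of the 13 libraries, with Ctrl_RT in blue, Ctrl_CE in red and replicate numbers beside the points. Adipocyte and endothelial sums were higher in every Ctrl_CE library than in every Ctrl_RT library. Sums of the mast cell list, most of which was Kit, were lower. Muscle sums were split into low and high libraries in both groups.

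Other cell types were present at lower summed levels. Endothelial markers summed to 1200 to 1400 CPM in Ctrl_RT and 1430 to 1590 in Ctrl_CE, with Pecam1 at log2FC 0.30 ± 0.05 and only the tight junction gene Cldn5 called, lower in the cold (-1.12 ± 0.29). Mast cell markers summed to 43 to 81.2 CPM and 21.7 to 40.5 CPM, most of it the stem cell factor receptor Kit. Kit alone ran from 30.7 to 74.3 CPM in Ctrl_RT and from 12.1 to 31.1 CPM in Ctrl_CE. Cpa3, Mcpt4, Tpsb2 and Cma1 stayed at 1.97 CPM or less in every library. The sum thus followed Kit and was not a measure of mast cells. Kit fell (-1.49 ± 0.20, adjusted p = 3.2e-07), the protease Cpa3 was called lower and the histamine-synthesizing Hdc called higher, and Fcer1a was too low to be tested. The call of Cpa3 was lost without any one of 9 libraries (all but Ctrl_RT 2 and Ctrl_CE 3, 5 and 6). Of 12 macrophage markers 0 were called (sums of 113 to 192 CPM in Ctrl_RT and 72.8 to 165 in Ctrl_CE), and likewise 0 of 12 lymphocyte markers (5.98 to 9.25 and 4.71 to 25.6 CPM), 0 of 5 neutrophil markers (2.39 to 7.67 and 0.653 to 37 CPM), 0 of 10 mural and smooth muscle markers (784 to 905 and 604 to 804 CPM) and 0 of 7 erythroid markers (64.6 to 125 and 76.7 to 185 CPM). Of 10 fibroblast and progenitor markers (649 to 1030 and 531 to 816 CPM) 2 were called, Pi16 and Mfap5, both lower. Of 8 Schwann cell and nerve markers (88.4 to 182 and 91.2 to 148 CPM) only the neurotrophin receptor Ngfr was called, lower in the cold (-1.31 ± 0.18). The white adipocyte list reached 90 to 176 CPM in Ctrl_RT and 381 to 485 in Ctrl_CE. Most of that rise was the natriuretic peptide clearance receptor Npr3, while Lep, Nnat and Hoxc9 were called lower. Hoxc9 rests on few counts, at 0 to 0.138 CPM in Ctrl_RT and 0.0408 CPM or less in Ctrl_CE. In RNA of whole tissue, fewer cells of a type and less RNA per cell cannot be told apart.

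Ucp1, Ppargc1a and Dio2, genes of active brown fat, rose in the cold. Ucp1 ran from 5820 to 8450 CPM in Ctrl_RT (median 6910) and from 11700 to 14100 CPM in Ctrl_CE (median 12200), with no overlap between the groups. Its log2FC was 0.86 ± 0.08 (adjusted p = 2.7e-10), a 1.81-fold rise on a level that was already high at 22 °C. Ppargc1a, which encodes the coactivator PGC-1alpha that drives mitochondrial and thermogenic genes, stood between 21.1 and 59.2 CPM at room temperature and at 171 CPM or more in the cold, with a median of 215 (log2FC 2.39 ± 0.21, adjusted p = 1.4e-10). Dio2, the deiodinase that makes active thyroid hormone inside the cell, moved from a median of 70.7 CPM (44.8 to 124) to between 201 and 474 CPM, a log2FC of 1.92 ± 0.24. The libraries of the groups did not overlap for any of these genes.

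Of the 25 genes in the thermogenic core list, 9 rose and 0 fell, beside 4.96% and 9.93% of all genes, and the median log2FC of the list was 0.35. The fatty acid elongase Elovl3 went from a median of 328 CPM, with no library above 397, to 877 to 1780 CPM (median 1660). Its log2FC was 2.20 ± 0.13 (adjusted p = 7.2e-14), and the lowest cold library, Ctrl_CE 4, was still above every room temperature library. Gpr3, a receptor that signals to cAMP without a ligand, rose from a median of 0.216 CPM to 1.61 CPM (3.09 ± 0.34). The potassium channel Kcnk3 rose from 785 to 1430 CPM at the median (0.85 ± 0.08) and the mitochondrial carrier Ucp2 from 41.6 to 68.1 CPM (0.79 ± 0.10). None of the 9 called genes had a Ctrl_CE library within the Ctrl_RT range. The remaining 16 members, among them Cidea, Cox8b and Prdm16, were not called.

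**Figure D2:**
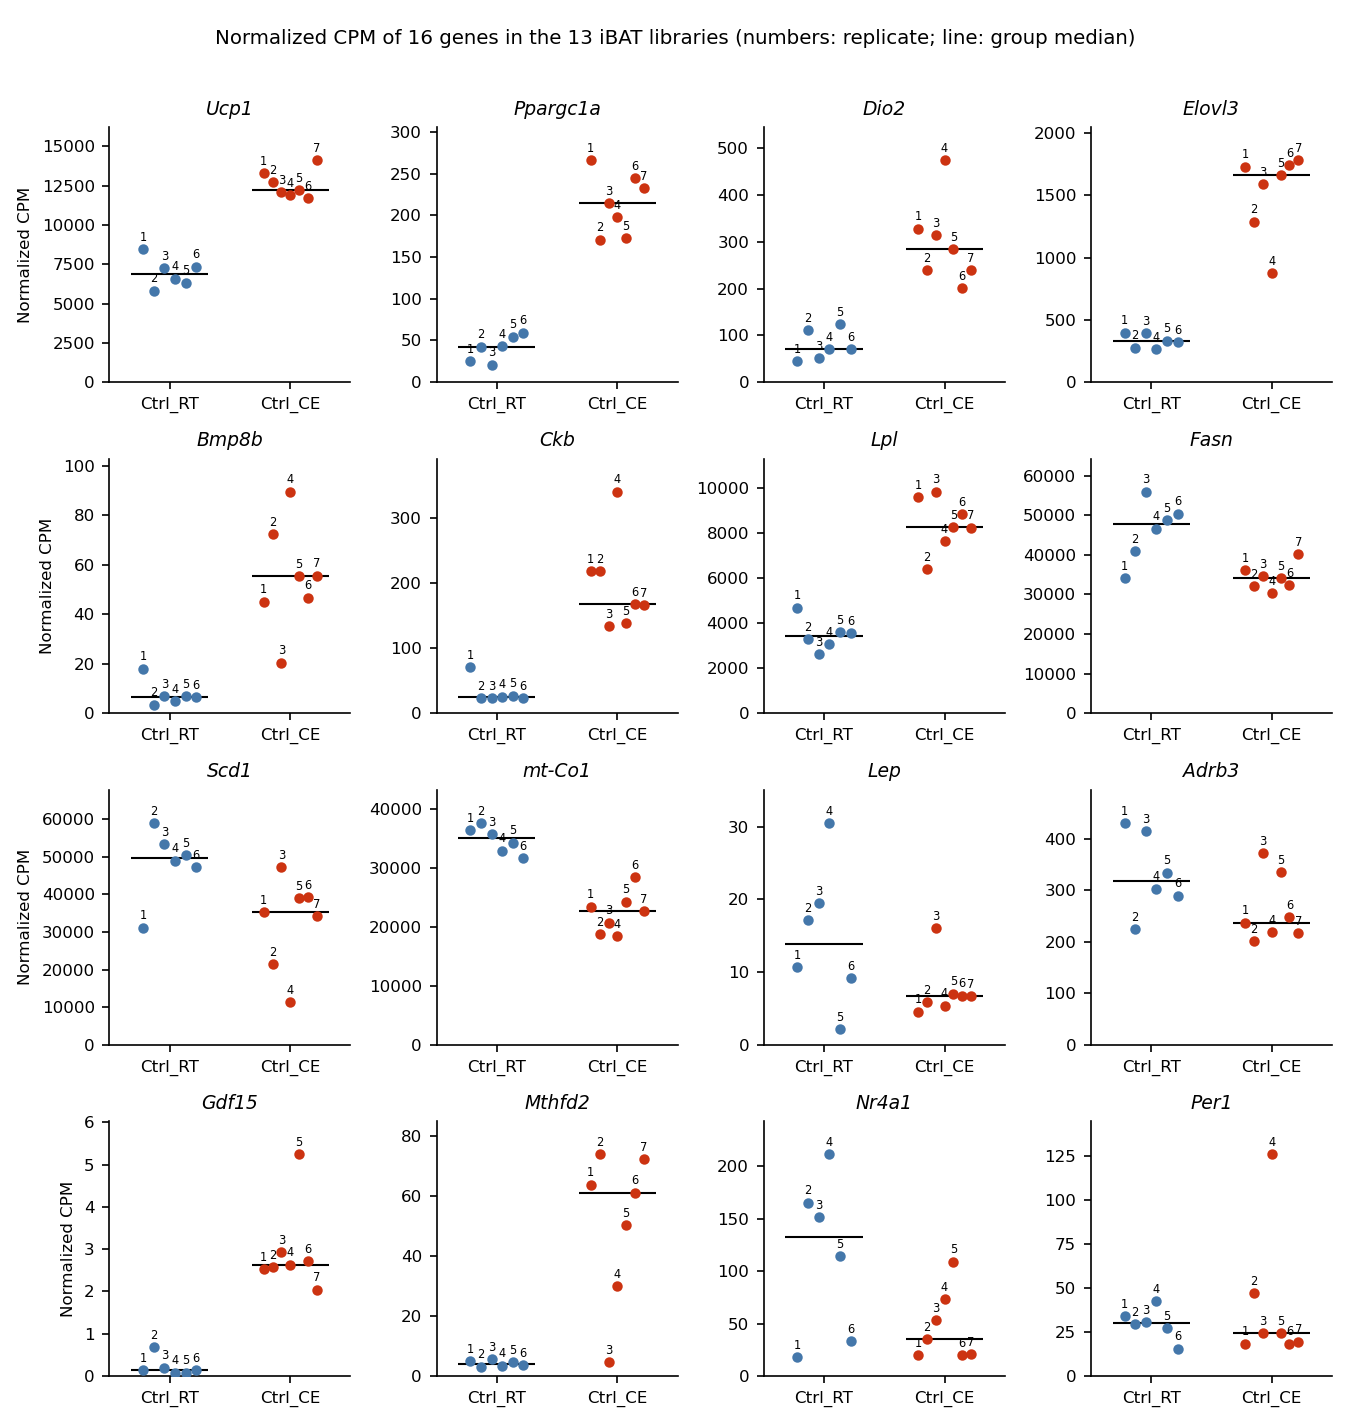
Normalized CPM of 16 genes in each library of Ctrl_RT (blue, n = 6) and Ctrl_CE (red, n = 7), on linear axes that start at 0, with replicate numbers beside the points and lines at the group medians. Ucp1, Ppargc1a, Dio2, Elovl3, Bmp8b, Ckb, Lpl and Gdf15 did not overlap between the groups, Mthfd2 stayed at the room temperature level in Ctrl_CE 3, and Per1 was highest in Ctrl_CE 4.

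Dio2 is a known target of cAMP signaling, and its promoter is shown because it was the only thermogenic core gene with a full cAMP response element (TGACGTCA, the same on both strands) between 250 bases before and 50 after the start site in the RefSeq promoter table. This held for 1 of 19 genes of the list with a promoter in the table, 5.26%, and for 2.03% of all 27025 promoters. The stretch lies at chr12:90739076-90739183 of GRCm38.p6 on the minus strand, and the capitals mark the element, which starts 95 bases before the gene's start.
Dio2: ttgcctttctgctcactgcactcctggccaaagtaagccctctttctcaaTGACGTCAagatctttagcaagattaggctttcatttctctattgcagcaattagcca
A match of letters is a description and does not show binding.

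Upstream of UCP1, the receptors and the signaling enzymes moved in different directions. Adrb3, the main beta-adrenergic receptor of adipocytes, stood at 224 to 430 CPM (median 319) and 201 to 372 CPM (median 237). The ranges overlapped and the difference was not called (log2FC -0.35 ± 0.15, adjusted p = 0.075). Of 37 genes of beta-adrenergic and cAMP signaling 8 rose and 3 fell (median 0.12), where 4.96% of all genes rose and 9.93% fell. With single libraries left out 6 to 9 rose and 2 or 3 fell. The counts were 6 and 2 without Ctrl_RT 1 and with groups from the treatment tag. The adenylyl cyclase Adcy3 rose from 472 CPM or less to 766 CPM or more (1.83 ± 0.17), whereas another cyclase, Adcy5, fell from 15.9 CPM (10 to 19.5) to 3.71 CPM (2.88 to 4.44), a log2FC of -2.12 ± 0.21 (adjusted p = 1.4e-09). Both protein kinase A genes that were called rose, the regulatory subunit Prkar1a (0.74 ± 0.06) and the catalytic subunit Prkaca (0.59 ± 0.07), as did Adcy4 (0.79 ± 0.08). The G protein regulator Rgs2 fell (-1.03 ± 0.38, adjusted p = 0.036), whose call was lost without any one of 7 libraries (adjusted p between 0.063 and 0.11 without Ctrl_RT 1, 3 or 4 or Ctrl_CE 1, 2, 6 or 7).

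Genes that respond to cAMP within the first hour or so did not all stand high after 24 h. Atf3 rose from 2.56 to 10.2 CPM at the median (2.05 ± 0.24). The kinase Sik1 and the receptor Nr4a3 were also called higher (0.80 ± 0.24 and 0.96 ± 0.34). Sik1 was at 20.8 CPM in Ctrl_RT 1, at 111 to 137 in the other Ctrl_RT libraries and at 160 to 234 in Ctrl_CE. Nr4a1, in contrast, ranged from 18.1 to 211 CPM at room temperature and from 19.7 to 109 CPM in the cold, too variable among mice for a call (-1.29 ± 0.63, adjusted p = 0.12). Fos varied widely only at room temperature, from 0.918 to 15 CPM in Ctrl_RT, and ran from 0.971 to 2.62 CPM in Ctrl_CE. It was above every cold library in Ctrl_RT 2, 3, 4 and 5 (11.3, 15, 10.4 and 4.01 CPM). In Ctrl_RT 1 and 6 it was at 0.918 and 1.52 CPM.

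Of 37 transcription regulators of brown fat 4 rose and 1 fell, a share near the 14.9% called among all genes (median log2FC 0.16). Those that rose were Ppargc1a, the estrogen-related receptors Esrra (0.73 ± 0.06, adjusted p = 4.3e-11) and Esrrb (1.37 ± 0.17), which partner with PGC-1alpha, and the coactivator Gadd45g (0.91 ± 0.22). Irf4, another partner of PGC-1alpha, was lower in the cold (-1.34 ± 0.30, adjusted p = 6.8e-04). It ranged from 13.3 to 40.2 CPM in Ctrl_RT and from 4.61 to 25 CPM in Ctrl_CE, where replicate 4 held the highest value. Without Ctrl_CE 4 a further regulator was called lower, and the count was 4 up and 2 down. Where 4.96% of all genes rose and 9.93% fell, 1 of 11 genes of thyroid hormone handling rose, Dio2, and 1 fell. The latter was the corepressor Hr, itself a target of the hormone, at 30.1 CPM (17.6 to 38.3) and 9.16 CPM (5.39 to 11.3), a log2FC of -1.71 ± 0.22. Dio1 was too low to be tested.

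Brown fat can also spend ATP in cycles that do not need UCP1. Of 19 genes of the creatine, calcium and glycerolipid cycles 5 rose and 1 fell (median 0.17), where 4.96% of all genes rose and 9.93% fell. Creatine kinase B, Ckb, rose from a median of 24.7 CPM (23.3 to 70.7) to 168 CPM (134 to 340), a 6.09-fold change (log2FC 2.61 ± 0.28, adjusted p = 7.1e-09). Ctrl_RT 1 and Ctrl_CE 4 were the high libraries of their groups, and the groups did not overlap. Glycerol kinase, Gk, which recycles the glycerol set free by lipolysis, rose from 221 CPM (152 to 366) to 882 CPM (784 to 987), 1.91 ± 0.18. The calcium pump Atp2a2 (0.88 ± 0.07), the phosphatase Alpl (0.82 ± 0.10) and the adenine nucleotide carrier Slc25a5 (0.61 ± 0.06) were also higher. Gamt, which makes creatine, fell (-0.65 ± 0.17), at 1.32 to 3.4 CPM in all libraries. Without Ctrl_CE 3 Gamt stayed under 1.5-fold and 6 genes rose, and without Ctrl_CE 5 there were 2 that fell. The number that rose was also 6 without Ctrl_RT 3 and was 4 without Ctrl_CE 4. The median of the 19 genes changed sign with single libraries left out. It was -0.02 without Ctrl_RT 2 or 4, -0.01 without Ctrl_CE 3 and -0.09 without Ctrl_CE 5, and reached 0.58 without Ctrl_RT 5. With the muscle score as a covariate it was -0.17.

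Genes for factors that brown fat secretes split evenly, 7 higher and 8 lower of 30 (median -0.02), beside 4.96% and 9.93% of all genes. Nrg1 and Adissp were too low for a test or without a matching name. Bmp8b, which sensitizes brown fat to noradrenaline, rose from 6.71 CPM (3.48 to 18.1) to 55.4 CPM (20.5 to 89.5), a log2FC of 2.81 ± 0.34. The growth factor Fgf9 rose from 0.929 to 6.14 CPM at the median (2.73 ± 0.23). Fgf21 stood at 0.33 to 0.946 CPM in Ctrl_RT and 2.02 to 6.73 CPM in Ctrl_CE (2.48 ± 0.24), and Gdf15 at 0.0782 to 0.688 CPM and 2.04 to 5.24 CPM (3.74 ± 0.36). For both, Ctrl_CE 5 held the highest value, and the other 6 cold libraries were also above the room temperature range. Cxcl14, Fgf1 and Ptgds were the other genes that rose. Those that fell included the adipokine Adipoq, from 537 CPM (498 to 659) to 299 CPM (409 or less), a log2FC of -0.80 ± 0.08 (adjusted p = 1.3e-09), and Il15, Igf1, Fst, Tgfb2, Pltp and Angptl4. Leptin, Lep, varied from 2.12 to 30.5 CPM in Ctrl_RT and 4.57 to 16 CPM in Ctrl_CE. It was called lower (-0.99 ± 0.36, adjusted p = 0.033), but not without any one of 9 libraries, Ctrl_RT 2, 3 or 4 or any Ctrl_CE library except replicate 3 (-0.65 without Ctrl_RT 4).

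**Figure D3:**
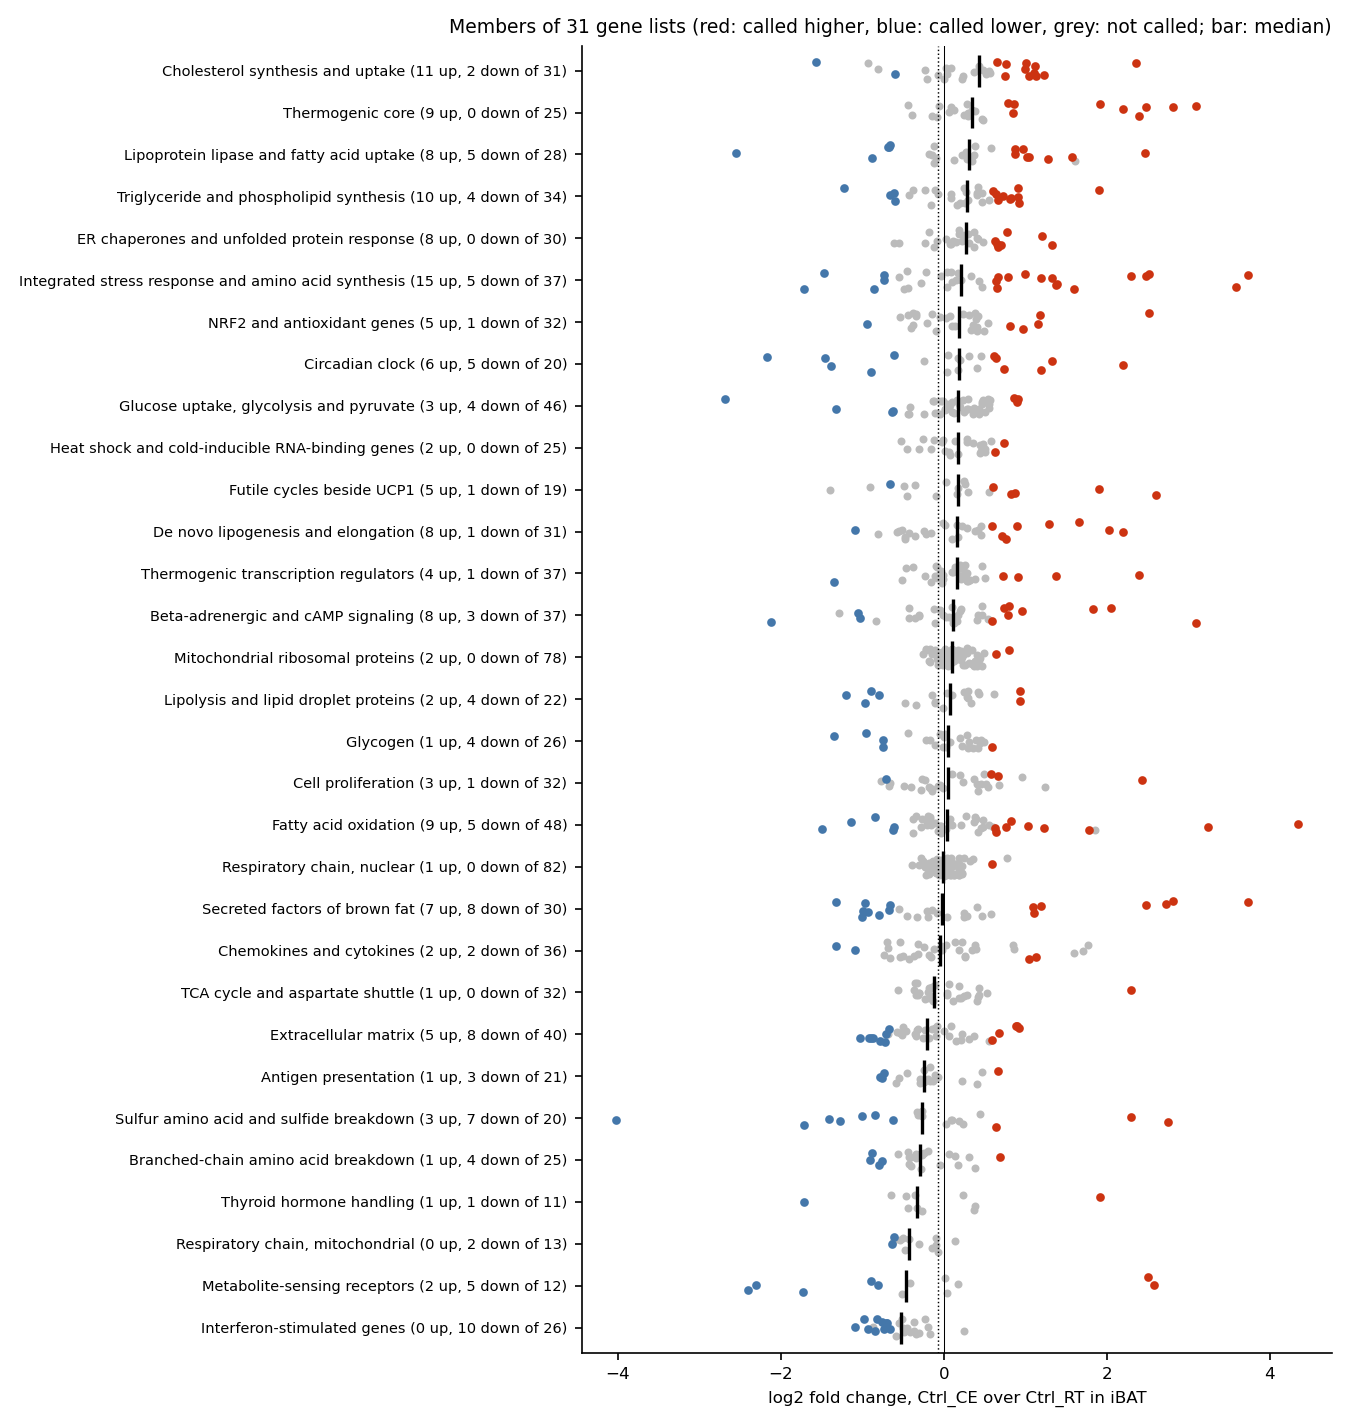
Log2FC of Ctrl_CE over Ctrl_RT for each tested member of 31 gene lists, ordered by list median. Red points were called higher, blue points lower and grey points were not called, black bars are list medians, and the dotted line is the median of all genes (-0.08). Cholesterol synthesis and the thermogenic core had the highest medians (0.43 and 0.35) and interferon-stimulated genes the lowest (-0.53).

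In lipid metabolism, genes of fatty acid uptake and esterification rose more often than they fell. In the list of lipoprotein lipase and fatty acid uptake 8 of 28 genes rose and 5 fell (median 0.31), beside 4.96% and 9.93% of all genes. Among those that fell, Lipc was at 0.118 CPM or less in every library. Lpl, the lipase that frees fatty acids from circulating triglycerides, ran from 2620 to 4700 CPM in Ctrl_RT (median 3430) and from 6400 to 9840 CPM in Ctrl_CE (median 8280), a log2FC of 1.27 ± 0.11 with no overlap. Angptl4, an inhibitor of Lpl, was lower, from 154 CPM (118 to 212) to 100 CPM (74.7 to 123), -0.67 ± 0.16, though under 1.5-fold without Ctrl_RT 4 (-0.57). Another gene of the Angptl family in the list was called higher. The endothelial lipase Lipg rose from 6.66 to 39.8 CPM at the median (2.47 ± 0.17, adjusted p = 1.2e-12). Fatty acid binding protein Fabp3 (1.57 ± 0.23), the acyl-CoA synthetases Acsl5 (1.02 ± 0.08) and Acsl4 (0.87 ± 0.07) and the transporter Slc27a2 (0.97 ± 0.16) rose, whereas the transporter Slc27a1 fell (-0.89 ± 0.11).

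The enzymes that build fatty acids from acetyl-CoA were not called higher. Fasn, fatty acid synthase, stood at 34200 to 55900 CPM in Ctrl_RT (median 47700) and 30400 to 40200 CPM in Ctrl_CE (median 34100). Its log2FC was -0.43 ± 0.08 (adjusted p = 1.3e-04), under 1.5-fold. The mitochondrial citrate carrier Slc25a1, which supplies the carbon for synthesis, fell from 1080 CPM (612 to 1280) to 470 CPM (379 to 563), -1.09 ± 0.16. The desaturase Scd1 ranged from 31200 to 59000 CPM and from 11400 to 47300 CPM, with Ctrl_CE 4 the lowest (-0.57 ± 0.21, adjusted p = 0.032). Beside it, the 8 of 31 genes of the list that rose were elongation and desaturation enzymes, Elovl3, Elovl6 (0.59 ± 0.08), Elovl4, Elovl7, Hacd2 (1.29 ± 0.09), Hsd17b12 (0.71 ± 0.05), Fads3 and Scd3, whose reads may be shared with close Scd relatives. Slc25a1 was the only member called lower, and the list median was 0.16. Among all genes 4.96% rose and 9.93% fell. With single libraries left out the number lower reached 4 (without Ctrl_RT 1), 3 (Ctrl_CE 1 or 6) or 2 (Ctrl_RT 2 or 6, Ctrl_CE 3 or 5), and the number higher was 6 to 8.

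Of 34 genes of triglyceride and phospholipid synthesis 10 rose and 4 fell (median 0.28), beside 4.96% and 9.93% of all genes. Agpat1, an acyltransferase of triglyceride and phospholipid synthesis, had a small but even change, from 132 CPM (120 to 140) to between 218 and 280 CPM, a log2FC of 0.91 ± 0.05 (adjusted p = 3.5e-14). Dgat1 and Dgat2 catalyse the same final step and moved in opposite directions. Dgat1 rose from 293 CPM or less to a median of 508 CPM (390 to 604), 0.92 ± 0.08, and Dgat2 fell from 1930 CPM (1410 to 2250) to 712 CPM (658 to 1240), -1.22 ± 0.13. The other genes that rose were Gk, the glycerol channel Aqp7, the glycerol phosphate acyltransferases Gpam (0.82 ± 0.09) and Gpat4, Lpin1, Ptdss2, Pcyt2 and Tamm41. Lpcat1, Pemt and the glyceroneogenic Pck1 (-0.59 ± 0.14) fell. Pck1 was under 1.5-fold without any one of Ctrl_RT 2, 5 or 6 or Ctrl_CE 2 or 5, and without Ctrl_CE 4 the number lower was 2.

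Among 22 genes of lipolysis and lipid droplets 2 rose and 4 fell (median 0.07), beside 4.96% and 9.93% of all genes. The droplet coat Plin2 rose from 1470 CPM (1320 to 1750) to 2830 CPM (2600 to 3020), 0.93 ± 0.07, and Plin4 fell from 589 CPM (460 to 666) to 321 CPM (349 or less), -0.89 ± 0.09. The carboxylesterases Ces1d (-0.79 ± 0.12) and Ces1f (-1.20 ± 0.14), whose reads may be shared within their family, and Pnpla3 (-0.97 ± 0.14) also fell. Pnpla2, the triglyceride lipase of adipocytes, was not called. Transcript levels say nothing of the phosphorylation by which cold acts on the lipases.

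Fatty acid oxidation genes changed in both directions, with 9 of 48 up, 5 down and a median of 0.05, beside 4.96% up and 9.93% down among all genes. Cpt1a, a form of the enzyme that admits fatty acids to mitochondria, rose from 17.3 CPM (14.7 to 18.6) to 51.7 CPM (50.9 to 84.2), a log2FC of 1.78 ± 0.12 (adjusted p = 5.5e-13). The brown fat form Cpt1b differed without overlap but under 1.5-fold, from 64.7 CPM (60.4 to 69) to 89.7 CPM (78.8 to 101), 0.48 ± 0.06. Of the enzymes of mitochondrial beta-oxidation, Acadm fell from 2190 to 1380 CPM at the median (-0.61 ± 0.06, under 1.5-fold without Ctrl_RT 6 or Ctrl_CE 2) and Eci1 from 435 to 531 CPM at room temperature to 227 to 303 CPM in the cold (-0.84 ± 0.06). The acyl-CoA thioesterases Acot4 (1.23 ± 0.17), Acot5 (4.35 ± 0.43) and Acot8 (1.03 ± 0.07) rose, as did the ketone body enzyme Bdh1 (3.25 ± 0.34), which was at or below 0.755 CPM in all Ctrl_RT libraries and between 1.98 and 5.8 CPM in Ctrl_CE. Acot4 and Acot5 lie among near relatives that may share reads.

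Few genes of mitochondrial energy conversion were called, where 14.9% of all genes were. Of 82 nuclear genes of the respiratory chain 1 was called, cytochrome c (Cycs, 311 to 391 CPM in the cold and lower in every room temperature library, 0.59 ± 0.07), with a list median of -0.01. Cycs was under 1.5-fold without Ctrl_RT 4 or Ctrl_CE 1, 4 or 6. In the citrate cycle and aspartate shuttle 1 of 32 was called, the cytosolic aspartate aminotransferase Got1. It rose from 29.5 CPM (15.5 to 37.1) to 141 CPM (126 to 151), a log2FC of 2.30 ± 0.13 (adjusted p = 3.1e-14), while the list median was -0.12. In the same list 2 genes rose without Ctrl_RT 5, and 1 fell without Ctrl_CE 3 or 4. Of 78 mitochondrial ribosomal proteins 2 rose, Mrpl20 (0.80 ± 0.06) and Mrpl47 (0.64 ± 0.06), with a median of 0.11.

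Transcripts of the mitochondrial genome were lower in the cold, 12 of 13 by sign and 2 by call, with a median log2FC of -0.43. The share called was near the 14.9% of all genes. The cytochrome oxidase subunit mt-Co1 fell from 35000 CPM (31700 to 37600) to 22700 CPM (18400 to 28400), -0.64 ± 0.08 (adjusted p = 3.2e-07), with no overlap. The complex I subunit mt-Nd4 fell from 9590 CPM (8830 to 11000) to 6630 CPM (5260 to 7540), -0.61 ± 0.07, and was under 1.5-fold without Ctrl_RT 1 or Ctrl_CE 2. Without Ctrl_CE 6 there were 4 calls. Near-identical copies of these genes in the nuclear genome may share their reads, and selection of polyadenylated RNA captures mitochondrial transcripts unevenly, so their levels are uncertain.

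Of 46 genes of glucose uptake, glycolysis and pyruvate 3 rose and 4 fell (median 0.17), a share near the 14.9% called among all genes. The glycolytic enzyme Tpi1 rose from 389 CPM (333 to 414) to 717 CPM (657 to 786), 0.90 ± 0.05 (adjusted p = 3.1e-14), and Hk1 from 49.8 to 86 CPM at the median (0.92 ± 0.08). The brown fat hexokinase Hk2 (0.29 ± 0.08), the glucose transporter Slc2a1 (0.10 ± 0.13) and the kinase Pdk4 (0.10 ± 0.11), which holds back pyruvate oxidation, were not called. Pyruvate carboxylase Pcx (-0.62 ± 0.09) and the monocarboxylate carrier Slc16a7 (-1.32 ± 0.20) fell. Without Ctrl_RT 5, the library with a liver transcript, the counts were 5 up and 3 down, and they were 4 up and 2 down without Ctrl_RT 3. Of 26 glycogen genes 1 rose, the synthase Gys2 (0.59 ± 0.08), and 4 fell, Pygb, Phka2, Phkg1 and Epm2a, which act in glycogen breakdown or its control (median 0.06). The share called was again near that of all genes. Gys2 was under 1.5-fold without any one of 9 libraries (Ctrl_RT 2, 3, 4 or 6, Ctrl_CE 1, 3, 5, 6 or 7).

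Cholesterol synthesis had the highest median of the 31 lists, 0.43, with 11 of 31 genes up and 2 down. Among all genes 4.96% were up and 9.93% down. Hsd17b7, a late enzyme of the pathway, rose from 11.1 CPM (9.25 to 12.8) to 58.2 CPM (40.3 to 72.7), a log2FC of 2.35 ± 0.12 (adjusted p = 7.8e-15). Fdps, Idi1, Cyp51, Sqle, Msmo1, Nsdhl and Stard4 rose by log2FC of 0.66 to 1.13. Fdft1, squalene synthase, which lies between Fdps and Sqle in the pathway, fell from 106 CPM (73.8 to 139) to 34.7 CPM (24.5 to 47.1), -1.56 ± 0.15. The exporter Abca1 (-0.60 ± 0.15) was the other gene lower, and was under 1.5-fold without any one of 7 libraries (Ctrl_RT 2, 5 or 6, Ctrl_CE 2, 4, 6 or 7). Ctrl_CE 3 lay within the room temperature range for 6 of the 13 called genes, and each of the other cold libraries for 1 or 0.

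The integrated stress response is a program in which the factor ATF4 raises amino acid synthesis and transport when translation is slowed. Of 37 genes of this list 15 rose and 5 fell (median 0.22), where 4.96% of all genes rose and 9.93% fell. Mthfd2, an enzyme of mitochondrial folate metabolism, stood at 3.18 to 5.56 CPM in Ctrl_RT. In Ctrl_CE it was at 63.8, 73.9, 4.7, 29.9, 50.4, 61.1 and 72.3 CPM in replicates 1 to 7, so that replicate 3 stayed in the room temperature range. The log2FC of Mthfd2 was 3.59 ± 0.39 (adjusted p = 9.5e-09), and 3.79 without replicate 3. The serine synthesis gene Psat1 rose from 3.74 CPM (2.39 to 4) to 23.2 CPM (3.38 to 24.4), 2.29 ± 0.33, again with replicate 3 lowest.

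Some factors and carriers of the same program also rose. Atf4 rose from 79.5 to 109 CPM at the median (0.63 ± 0.13), Atf5 from 350 to 845 CPM (1.19 ± 0.18), and the amino acid carrier subunit Slc3a2 from 58.3 CPM (42.5 to 81) to 152 CPM (144 to 161), 1.38 ± 0.10. Asns (0.65 ± 0.12), Phgdh (0.99 ± 0.30), Aldh18a1 (1.6 ± 0.30), Mthfd1l, Slc7a1, Slc7a5, Slc7a11 and Slc38a2 also rose, Slc7a11 from levels at or under 0.0393 CPM. The stress factor Nupr1 fell from 12.7 CPM (10.8 to 15.9) to 4.55 CPM (4.12 to 5.61), -1.47 ± 0.12 (adjusted p = 7.2e-11), and the translation inhibitor Eif4ebp1 from 166 CPM (153 to 179) to 98.8 CPM (97.8 to 105), -0.73 ± 0.04. Slc1a5, Slc6a9 and Cbs fell as well. Ddit3, Trib3 and Chac1, which mark a strong stress response, were not called. Ctrl_CE 3 lay within the room temperature range for 6 of the 20 called genes and Ctrl_CE 4 for 4.

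**Figure D4:**
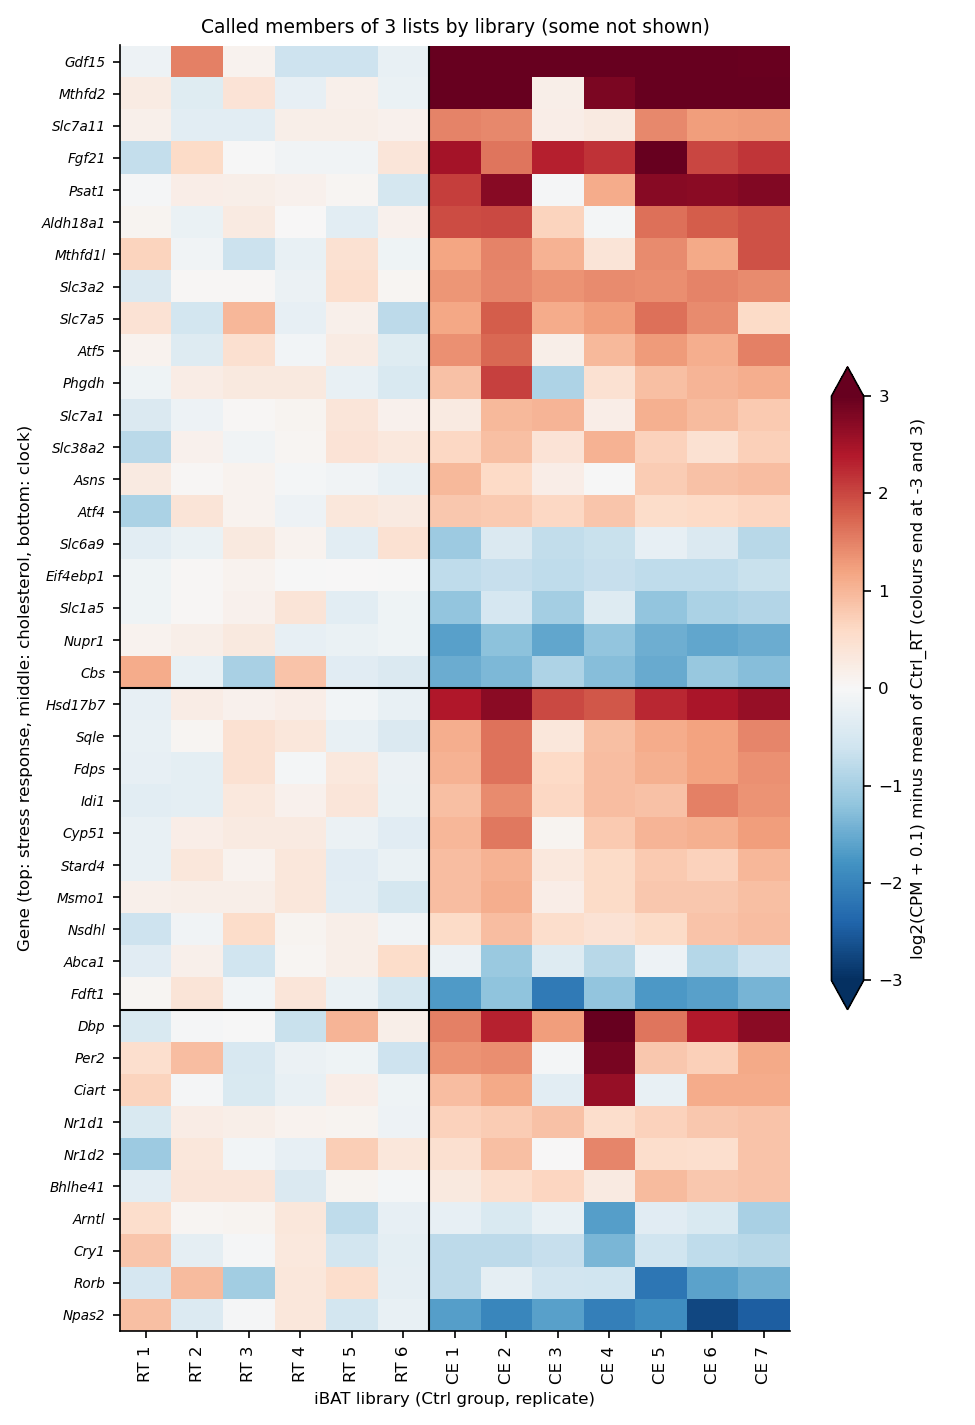
Log2(CPM + 0.1) of called members of 3 lists in each library, minus the mean of the Ctrl_RT libraries, with red higher, blue lower and colours ending at -3 and 3. Some called members are not shown. The lists are the stress response (top), cholesterol (middle) and the circadian clock (bottom). Mthfd2 and Psat1 were near 0 in Ctrl_CE 3, and Dbp, Per2 and Ciart were highest in Ctrl_CE 4.

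Promoters of this program often hold the amino acid response element that ATF4 binds, searched as TGATGNAA on both strands. It was found in 9 of 31 promoters of the list, 29%, and in 4.51% of all promoters in the RefSeq table. Fgf21 and Nupr1 are shown because both hold the element and moved in opposite directions. Both stretches are of GRCm38.p6 on the minus strand, at chr7:45615572-45615679 and chr7:126625523-126625630, and the capitals mark the element, here on the opposite strand of each gene, starting 139 and 110 bases before the start.
Fgf21: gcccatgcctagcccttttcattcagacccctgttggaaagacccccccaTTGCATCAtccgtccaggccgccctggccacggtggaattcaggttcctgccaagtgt
Nupr1: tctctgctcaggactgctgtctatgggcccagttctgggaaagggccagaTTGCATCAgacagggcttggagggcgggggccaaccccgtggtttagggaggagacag
Fgf21 was higher and Nupr1 lower in all 7 cold libraries than in any room temperature library.

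Chaperones of the endoplasmic reticulum rose in 8 of 30 cases and fell in 0 (median 0.27), beside 4.96% and 9.93% of all genes. Manf, a secreted chaperone, rose from 32.2 CPM (31.4 to 49.8) to 82.4 CPM (76.3 to 84.5), 1.21 ± 0.10 (adjusted p = 2.3e-11). Canx, which retains unfolded glycoproteins, rose from 342 CPM or less to a median of 465 CPM (429 to 512), 0.70 ± 0.06, and the master chaperone Hspa5 from 354 CPM or less to a median of 433 CPM (417 to 463), 0.65 ± 0.07. Calr (0.67 ± 0.07), the sensor Atf6 (0.67 ± 0.06), Ero1l, Sdf2l1 (1.32 ± 0.17) and Dnajb9 were the others, and none of the 8 overlapped between the groups. Without Ctrl_RT 5 or Ctrl_RT 6 a single gene of the list was called lower.

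The ER stress element, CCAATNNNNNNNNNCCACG on both strands, was present in 10 of 26 promoters of this list, 38.5%, and in 0.137% of all promoters. Canx and Hspa5, both called higher, are shown as examples, at chr11:50325750-50325868 on the minus strand and chr2:34771975-34772093 on the plus strand of GRCm38.p6. Capitals mark the element, which starts 145 and 65 bases before the start.
Canx: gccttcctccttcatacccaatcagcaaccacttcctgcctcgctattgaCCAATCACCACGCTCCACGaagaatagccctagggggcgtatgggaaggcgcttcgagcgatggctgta
Hspa5: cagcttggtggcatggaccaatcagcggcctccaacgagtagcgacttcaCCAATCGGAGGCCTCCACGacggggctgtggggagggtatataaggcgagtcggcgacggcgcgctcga
Both genes were higher in every Ctrl_CE library than in any Ctrl_RT library.

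Of 25 heat shock and cold-inducible genes 2 rose, Bag3 (0.62 ± 0.07) and Hspa8 (0.74 ± 0.16), with a median of 0.17, and without Ctrl_CE 2 the count was 1. Among all genes 4.96% rose. Rbm3, an RNA-binding protein named for its induction by low temperature, differed without overlap, from 22.2 CPM (15.6 to 28.4) to 33.7 CPM (29.3 to 36.7), but just under 1.5-fold (0.58 ± 0.10, adjusted p = 2.1e-05), and passed it in 6 of the 13 fits that left out a library. Its relative Cirbp was lower and not called (-0.45 ± 0.15). Antioxidant genes of the NRF2 program rose in 5 of 32 cases and fell in 1 (median 0.19), a share near the 14.9% called among all genes. Prdx6 (0.97 ± 0.05, adjusted p = 1.7e-14), Txnrd1 (0.81 ± 0.05), Srxn1 (1.16 ± 0.08), Hmox1 (1.18 ± 0.18) and Slc7a11 rose. Without Ctrl_CE 3 there were 2 that fell. Gpx3 fell from 1060 to 515 CPM at the median (-0.94 ± 0.22), with Ctrl_CE 4 at 1120 CPM.

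Of 25 genes of branched-chain amino acid breakdown, a fuel of brown fat, 19 had a negative log2FC, 4 fell and 1 rose (median -0.30), where 9.93% of all genes fell and 4.96% rose. Ivd, isovaleryl-CoA dehydrogenase, fell from 199 CPM or more to a median of 125 CPM (114 to 156), -0.91 ± 0.07 (adjusted p = 1.2e-11), and Mccc2, Aldh6a1 and Hsd17b10 fell by 0.76, 0.89 and 0.80 on the log2 scale. Dbt, a subunit of the entry complex, rose (0.69 ± 0.07). In sulfur amino acid and sulfide breakdown 7 of 20 genes fell and 3 rose (median -0.27), with Gadl1 too low to be tested. Among those that fell, Bhmt was at 1.06 CPM in Ctrl_RT 5, the library with a liver transcript, and at 0.0692 CPM or less elsewhere.

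For 3 of the genes of sulfide and sulfite oxidation that fell, Suox, Sqor and Tst, the groups did not overlap. Sulfite oxidase, Suox, fell from 78.6 CPM (65.3 to 81.1) to 31.3 CPM (29 to 36.2), -1.27 ± 0.06 (adjusted p = 5.9e-15). Sulfide quinone oxidoreductase, Sqor, fell from 58.7 CPM (51.2 to 65.7) to 21.5 CPM (19.4 to 24.4), -1.41 ± 0.07 (adjusted p = 7.8e-15), and the sulfurtransferase Tst from 32.3 to 15.8 CPM at the median (-1.0 ± 0.12). The methyltransferase Nnmt rose from 8.23 CPM (6.41 to 21.5) to 64.3 CPM (38.9 to 116), 2.75 ± 0.32. These are levels on a control diet free of cysteine, which all 13 mice ate.

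In the list of receptors that sense metabolites 7 of 12 genes were called, 2 up and 5 down (median -0.47), beside 14.9% of all genes. The list also holds the natriuretic peptide clearance receptor Npr3, which is not a metabolite sensor. Npr3 rose from 54.3 CPM (36.2 to 95.6) to 373 CPM (419 or less), a log2FC of 2.58 ± 0.20, and the fatty acid receptor Ffar4 from 17.8 CPM (8.13 to 53.2) to 144 CPM (97.4 to 166), 2.50 ± 0.32. The lactate receptor Hcar1 fell from 38.6 CPM (19.1 to 43) to 7.37 CPM (5.21 to 9.35), -2.31 ± 0.19, and the ketone body and niacin receptor Hcar2 from 6.67 to 1.14 CPM at the median (-2.40 ± 0.24). Ffar2, Adora1 and Sucnr1 fell too. Hcar1, Hcar2, Ffar2 and Adora1 couple to the inhibitory G protein that lowers cAMP, and Ffar3 and Gpr84 were too low to be tested.

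Clock genes changed in both directions, 6 up and 5 down of 20 (median 0.18), beside 4.96% and 9.93% of all genes. All mice were killed in the morning of the light phase. Dbp rose from 4.83 CPM (3.05 to 10.1) to 24.8 CPM (11.8 to 45.8), 2.20 ± 0.34, and Nr1d1 from 80.6 CPM (55.1 to 88.3) to 128 CPM (108 to 139), 0.74 ± 0.08. The activators Npas2 (-2.17 ± 0.24) and Arntl (-0.62 ± 0.21) and the repressor Cry1 (-0.90 ± 0.18) fell. Per1 did not differ by call (0.41 ± 0.36). It was at 126 CPM in Ctrl_CE 4 and at 18.4 to 47.1 CPM in the other cold libraries, and without Ctrl_CE 4 its log2FC was -0.24.

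Of 40 matrix genes 5 rose and 8 fell (median -0.21), where 4.96% of all genes rose and 9.93% fell. The basement membrane collagens Col4a1 (0.68 ± 0.08) and Col4a2 (0.89 ± 0.09) rose, as did Loxl1, while Col4a4, also a basement membrane collagen, fell (-0.67 ± 0.17, adjusted p = 0.0022). The fibrillar collagens Col1a1 (153 to 76.8 CPM at the median, -0.92 ± 0.28), Col1a2 and Col3a1 (-1.03 ± 0.26) and the crosslinker Lox (-0.90 ± 0.13) fell. Col1a1 was not called without Ctrl_RT 5 (-0.67, adjusted p = 0.056). Of 36 chemokines and cytokines 2 rose, Cxcl12 (159 to 355 CPM, 1.05 ± 0.13) and Il1rn, and 2 fell, Cxcl9 and Cx3cr1 (median -0.04). The number that fell was 4 without Ctrl_RT 3 or Ctrl_CE 4 and 5 without Ctrl_CE 2. Of 32 proliferation genes 3 rose and 1 fell (median 0.05). The shares called in the chemokine and proliferation lists were near the 14.9% of all genes. The cyclin Ccnd1 rose from 6.77 CPM (5.16 to 8.78) to 45.3 CPM (9.33 to 52.9), 2.43 ± 0.27, and the other calls were the replication genes Mcm3, Mcm5 and Mcm4, of which Mcm3 and Mcm5 were under 1.5-fold without Ctrl_CE 3, and Mcm3 also without any one of Ctrl_RT 2, 3 or 6 or Ctrl_CE 2.

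Interferon-stimulated genes, which cells use against viruses, fell in 10 of 26 cases and rose in 0, beside 9.93% and 4.96% of all genes. Of the 26, 25 had a negative log2FC (median -0.53). Rsad2 fell from 22.4 CPM (14 to 35.5) to 10 CPM (8.33 to 16.2), -1.08 ± 0.17 (adjusted p = 4.0e-06), and the RNA sensor Ifih1 from 9.64 CPM (7.71 to 11.2) to 5.61 CPM (4.71 to 6.85), -0.75 ± 0.10, without overlap. Irf7, Ddx58, Gbp3, Ifit1, Rtp4, Ifi44, Oas2 and Mx2 were the others. A test against the 1.5-fold threshold itself kept 1 of the 10. Of 21 antigen presentation genes 3 fell, Tapbp, H2-T23 and Psmb9, and 1 rose, H2-T22, a close relative of H2-T23 (median -0.24). The number that fell was 5 without Ctrl_CE 2 or Ctrl_CE 4.

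The interferon-stimulated response element, TTTCNNTTTC on both strands, was found in 13 of 19 promoters of the interferon list, 68.4%, and in 3.99% of all promoters. Rsad2 and Ifih1, the called genes with the smallest p, are shown with the element in capitals. They lie at chr12:26456513-26456622 and chr2:62646206-62646273 of GRCm38.p6, both on the minus strand. The element starts 120 bases before the start in Rsad2, and in Ifih1 it lies just after the start, on the opposite strand.
Rsad2: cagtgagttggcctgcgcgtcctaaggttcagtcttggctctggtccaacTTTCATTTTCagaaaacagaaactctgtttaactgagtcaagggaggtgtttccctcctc
Ifih1: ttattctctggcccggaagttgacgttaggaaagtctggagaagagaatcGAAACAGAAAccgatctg
Binding was not measured.

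Outside the lists, the largest changes among genes of at least 1 CPM on average and without overlap were found in genes of varied function. The potassium channel Kcnh6 was at 0 to 0.086 CPM in Ctrl_RT and 0.595 to 5.22 CPM in Ctrl_CE, with a fitted log2FC of 5.73 ± 0.58. The tachykinin receptor Tacr2 rose from 0.428 CPM (0.173 to 0.587) to 8.84 CPM (4.46 to 11.1), 4.43 ± 0.27 (adjusted p = 1.2e-13), and the kinase Sgk2 from 1.4 CPM (0.636 to 2.25) to 27.3 CPM (18.8 to 40.9), 4.27 ± 0.31. Gmpr, which returns guanine nucleotides to inosine monophosphate, rose at a much higher level, from 145 CPM (128 to 356) to 1520 CPM (930 to 2380), 2.97 ± 0.25, with Ctrl_RT 1 the high library at room temperature. Cpne5 (3.58), Pimreg (3.50), Pla2g2e (3.19), Fam131c (3.04), Pde1c (2.99), Acot5, Bdh1 and Gdf15 make up the 12.

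The 12 largest falls were led by Mycl, a MYC family factor, from 5.57 CPM (2.39 to 20.7) to 0.515 CPM (0.238 to 1.29), -3.96 ± 0.46. The galactosyltransferase B3galt2 fell from 33 CPM (11.3 to 49.1) to 3.3 CPM (2.01 to 4.59), -3.35 ± 0.27, and the acyl-CoA synthetase Acsm3 from 52.4 CPM (36.5 to 76.4) to 7.53 CPM (5.43 to 10.6), -2.85 ± 0.21. Carbonic anhydrase 3, Car3, fell from 613 CPM (533 to 1390) to 116 CPM (76.8 to 231), -2.56 ± 0.32. Mc2r, the receptor for adrenocorticotropic hormone, fell from 2.33 to 0.268 CPM at the median (-2.86 ± 0.34). Tmem132b (-3.37), Gdf5 (-3.31), Pkp3 (-3.02), Fam83a (-2.80), Tlr5 (-2.53), Fer1l6 (-2.50) and Acsm5 (-2.49) were the rest.

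On MetR the cold response differed from that on the control diet for 110 genes, 0.458% of those tested by the interaction term, 72 with a positive and 38 with a negative term, and 93 of them were DEGs of the cold response on the control diet. At an unadjusted p under 0.05 there were 3012. Grouping 3 libraries by their treatment tag in place of the title left 2 genes. Adcy5, which fell on the control diet, had a log2FC of 0.19 on MetR (interaction 2.31, adjusted p = 2.4e-04). The receptor Lgr6 rose from 118 CPM (82.6 to 151) to 448 CPM (399 to 525) on the control diet, 1.95 ± 0.10 (adjusted p = 5.9e-15), with 1.01 on MetR (interaction -0.94, adjusted p = 2.8e-04). The pyrophosphatase Ppa1 fell from 237 CPM (195 or more) to 85 CPM (77.1 to 100), -1.45 ± 0.11, with -0.40 on MetR (interaction 1.05). The clock gene Nr1d1 had an interaction of -0.77, Kng2 of -0.85 and Peli2 of 0.65. For Mthfd2 the interaction was -2.56 (adjusted p = 0.0084), for Elovl3 -0.89, and for Hcar2, which fell by 2.40 on the control diet and 0.39 on MetR, the adjusted p was 0.0045. Interactions of Ucp1, Ppargc1a and Dio2 were not called (adjusted p = 0.52, 0.92 and 0.26).

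In iWAT of mice on the control diet 4491 of 28343 genes were called between cold and room temperature, 15.8%, 1841 higher and 2650 lower. The difference between the depots in their cold response was called for 3075 genes, 10.8%, with the change more positive in iBAT for 1300 and more negative for 1775. Ucp1 rose by a log2FC of 4.11 in iWAT and by 0.86 in iBAT, a difference of -3.24 (adjusted p = 5.3e-04), from a much higher level at room temperature in iBAT. Of the 82 nuclear respiratory chain genes 55 rose and 1 fell in iWAT (median 0.68), against 1 called in iBAT, and for 58 of them the difference was called, with iBAT lower. Of the 13 mitochondrial genes 5 rose and 0 fell in iWAT (median 0.56), and 10 differed. The citrate cycle list had 22 called higher in iWAT and 1 in iBAT, and fatty acid synthesis and elongation 21 and 8, with Fasn up in iWAT (1.13) and a difference of -1.54 (adjusted p = 4.4e-05).

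**Figure D5:**
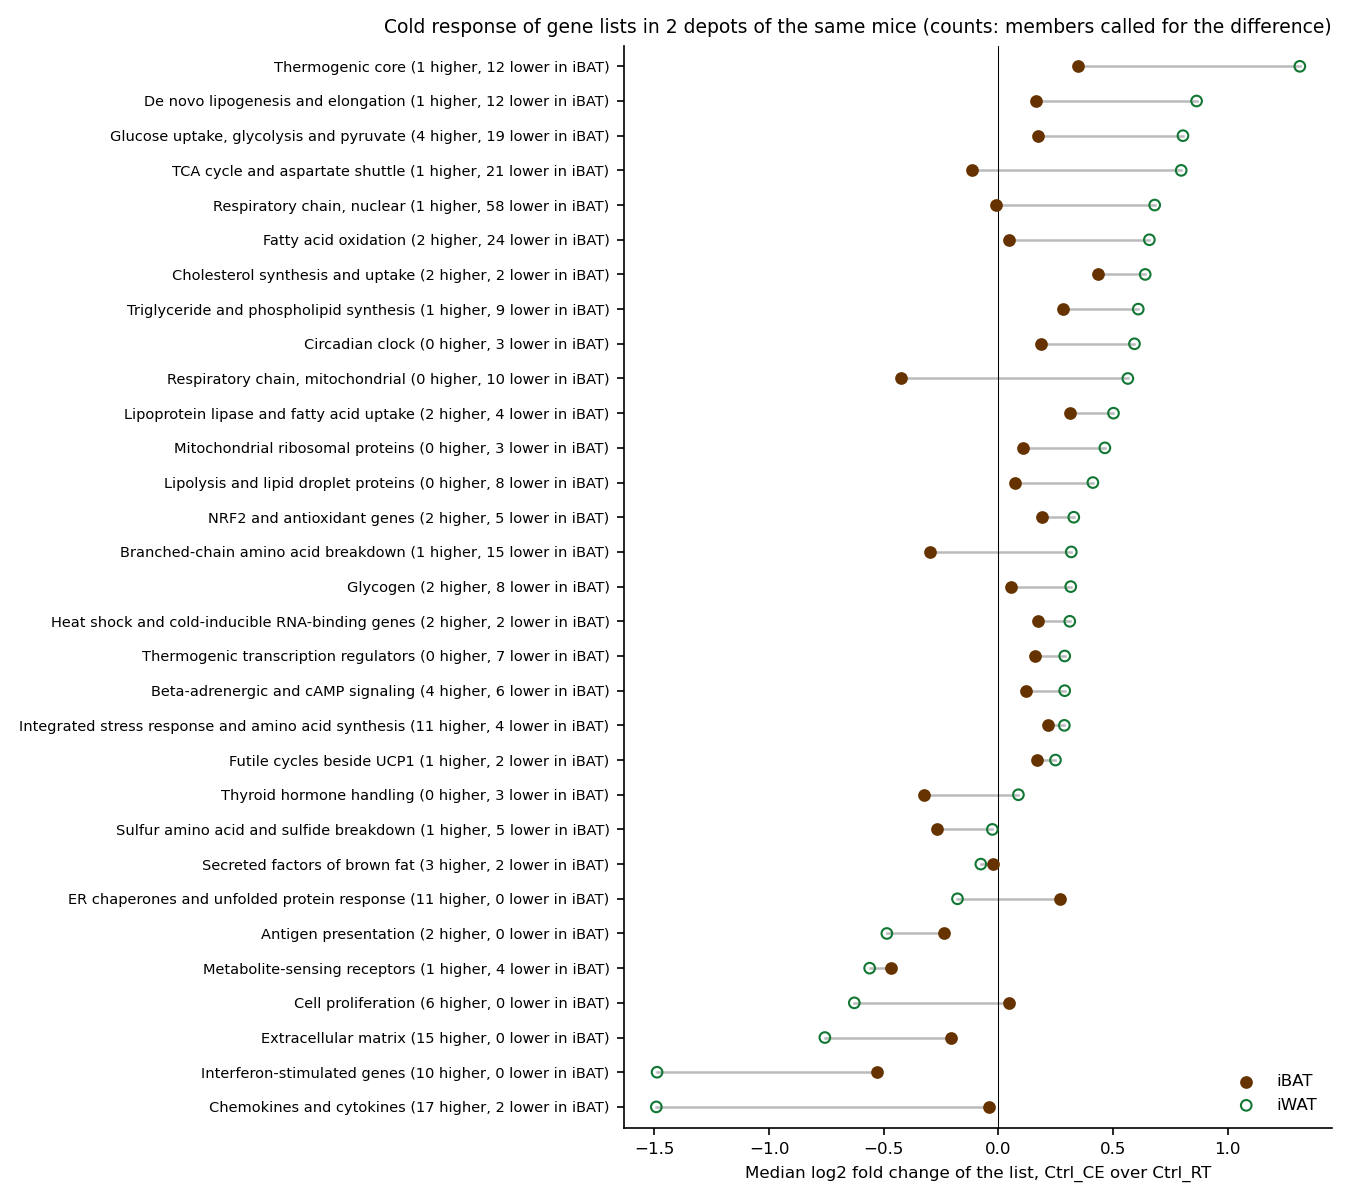
Median log2FC of Ctrl_CE over Ctrl_RT of each of 31 gene lists in iBAT (filled brown points) and iWAT (open green points), with the number of members called for the difference between depots beside each name. Thermogenic, lipogenic, glycolytic, citrate cycle and respiratory chain lists had higher medians in iWAT, while ER chaperone, matrix, interferon and chemokine lists had higher medians in iBAT.

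Some responses were present in iBAT and absent by call in iWAT, with the difference tested. Gdf15 had a log2FC of -0.26 in iWAT (difference 4.01, adjusted p = 5.1e-05), Ckb 0.25 (2.37, adjusted p = 4.7e-07), Nnmt -0.28 (3.04) and Pimreg 0.54 (2.98). The costimulatory receptor Cd40 rose in iBAT (1.84) and fell in iWAT (-1.41), a difference of 3.26, and the urokinase receptor Plaur did the same (1.99 and -1.05, difference 3.06). Of the ER chaperones 11 differed, all more positive in iBAT, and 1 rose and 7 fell in iWAT. Among genes of at least 1 CPM on average without overlap in iBAT, the largest negative differences were in Pkp3 (-3.60), Ucp1, Mc2r (-3.03), Dio2 (-3.02), Mycl (-2.91) and the kinase Map2k6 (-2.77), of which Ucp1 and Dio2 rose in both depots and the others fell in iBAT. Of 3572 cold DEGs of iBAT 1264 also differed between the depots, and 156 of these were called in the opposite direction in iWAT.

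Interferon-stimulated genes fell in both depots, 10 of 26 in iBAT and 22 of 26 in iWAT (medians -0.53 and -1.49), and 10 members differed, all less negative in iBAT. Chemokines and cytokines had 2 up and 2 down of 36 in iBAT against 1 up and 24 down in iWAT (median -1.49), and the matrix list 5 up and 8 down of 40 against 0 up and 22 down. The shares of immune and stromal cells, which differ between depots, were not measured.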

How the data were processed

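RNA of iBAT and iWAT was selected for poly(A), sequenced in read pairs and counted per gene, and the authors deposited raw counts with no normalization. Per the submitters' processing notes the tools included STAR 2.7.9a, featureCounts 2.0.3, Salmon 1.9.0, MultiQC 1.19 and DESeq2 1.46.0 with the mm10 build. Which of featureCounts and Salmon made the counts, and whether strand was used, is not given in the sources used here, so reads of a gene and an antisense partner cannot be told apart. Columns were matched to samples by library number and grouped by sample title. In Ctrl_CE, MetR_CE and MetR_RT of iBAT the library numbered 1 has a treatment tag of another group, 3 libraries in all. Gene names were found for 51948 of 56884 identifiers in the reference annotation by the identifier without its version.

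Genes with at least 10 counts in all over the 27 iBAT libraries were tested with edgeR 4.0.16 (R 4.3.3, limma 3.58.1), using TMM factors and the quasi-likelihood test in 1 model of 4 groups. DEGs had a Benjamini-Hochberg adjusted p under 0.05 and at least 1.5-fold change. The difference between depots was tested in a model over iBAT and iWAT. Most mice gave both depots, and that model took their libraries as independent. A fit with the mouse as a block was an alternative. Levels are TMM-normalized CPM, errors are standard errors of log2FC, and folds of low genes rest on few counts. A prior count of 2 entered only the log2 CPM behind the muscle score and the correlations of libraries, not the folds. For the cold response, p-values set the difference between 6 and 7 mice against the spread between mice, which was estimated over all 4 iBAT groups.

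The 31 gene lists, 12 marker lists, 28 key genes and the comparison itself were chosen with earlier results of these data known, so list counts are descriptions. Genes were named as key genes, as the 12 largest changes in each direction among DEGs with a symbol, a mean of at least 1 CPM and no overlap, as up to 4 DEGs of smallest p per list and direction, as the 6 largest depot differences in each direction and as the 6 interaction DEGs of smallest p. Further list members are named where a list's account needs them, and some genes are not reported here.

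Alternatives were leaving out each library in turn, other scaling (RLE), other filters, only the 2 groups in the fit, groups from the treatment tag, the replicate number as a block, a test against the 1.5-fold threshold (glmTreat), and DESeq2 1.42.0 with and without apeglm 1.24.0. A muscle covariate and a fit without the 3 libraries whose tag differs were chosen after seeing the data. The fits were tested on simulated data.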

Additional observations from a re-analysis of the deposited data

Results flagged for a closer look

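Levels of the named genes and the marker sums were screened in each group of 6 or 7 libraries for a library whose gap to its nearest neighbour was large for the range of the group (Dixon's criterion at the 95% level). Of 424 such groups 49 were beyond it. Chance gives about 1 in 20 for independent, normally distributed values, but CPM were not transformed and the genes share libraries. Whether 49 is more than chance gives was therefore not tested. Ctrl_RT 1 held Acaa1a at 120, Bmp8b at 18.1, Ckb at 70.7, Dbt at 218, Epm2a at 14.8, Gmpr at 356, Il1rn at 1.43, Lpcat1 at 11.2, Manf at 49.8, Nnmt at 21.5, Phka2 at 40.1 and Pla2g2e at 1.32 CPM. Ctrl_RT 2 had Adipoq at 659, Gdf15 at 0.688 and Mccc2 at 122 CPM. Ctrl_RT 4 showed Igf1 at 20.6, Irf4 at 40.2 and Lipg at 9.15 CPM. Ctrl_RT 5 held Adcy4 at 34.7, Dbp at 10.1, Ivd at 199 and the macrophage marker sum at 192 CPM. Ctrl_RT 6 had Hcar2 at 2.66 and the lymphocyte marker sum at 5.98 CPM. Ctrl_CE 1 showed Hoxc9 at 0.0408 and Il15 at 0.653 CPM. Ctrl_CE 2 held Cldn5 at 52.5, Igf1 at 11, the lymphocyte marker sum at 25.6 and the erythroid marker sum at 185 CPM. Ctrl_CE 3 had Cpt1a at 84.2, Lep at 16 and Tlr5 at 3.47 CPM. Ctrl_CE 4 showed Ciart at 15.8, Ckb at 340, Cry1 at 8.78, Gnmt at 9.87, Gpx3 at 1120, Hsd17b10 at 79.5, Irf4 at 25, Mycl at 1.29, Peli2 at 38.8, Per1 at 126, Rsad2 at 16.2 and the neutrophil marker sum at 37 CPM. Ctrl_CE 5 held Cycs at 311, Fgf21 at 6.73 and Gdf15 at 5.24 CPM. Ctrl_CE 7 had Tmem132b at 0.502 CPM. The causes were not tested. Ctrl_CE 4 and Ctrl_RT 1 each held 12 of these values.

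The cold response differed by diet for the following named genes. On MetR it was more positive than on the control diet for Acsm3 (1.13, log2), Adcy5 (2.31), B3galt2 (2.05), Car3 (2.07), Fam83a (2.14), Peli2 (0.65), Ppa1 (1.05), Tlr5 (1.9), Fdft1 (0.99), Hcar1 (1.19), Hcar2 (2.01), Igf1 (1.11) and Pck1 (0.82), all of which fell on the control diet. It was more negative for Elovl3 (-0.89), Fam131c (-0.82), Kng2 (-0.85), Lgr6 (-0.94), Mthfd2 (-2.56), Nr1d1 (-0.77), Pde1c (-1.82), Pimreg (-1.56), Pla2g2e (-1.56), Tacr2 (-1.54), Cpt1a (-0.98), Got1 (-0.76), Hsd17b7 (-0.67) and Npr3 (-1.13), all of which rose on the control diet. They were named for their change on the control diet or for the interaction itself, so their shared direction is no separate result.

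Among the key genes and the largest differences between the depots, the cold response of iBAT was more positive for Cd40 (3.26, log2), Ckb (2.37), Gdf15 (4.01), Mthfd2 (2.37), Nnmt (3.04), Pimreg (2.98) and Plaur (3.06). It was more negative for Cpt1b (-2.20), Dio2 (-3.02), Fasn (-1.54), Gk (-1.64), Hk2 (-1.22), Lep (-1.88), Map2k6 (-2.77), Mc2r (-3.03), mt-Co1 (-1.19), Mycl (-2.91), Pdk4 (-1.87), Pkp3 (-3.60), Scd1 (-1.21) and Ucp1 (-3.24). Several of the latter, such as Ucp1, Dio2 and Gk, rose in both depots and rose more in iWAT.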

How the results depend on the processing

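With each library left out in turn, 3306 to 3620 genes were called, 1117 to 1219 higher and 2189 to 2401 lower, and without Ctrl_CE 5, 3516. The fit to the 2 groups alone gave 3270 DEGs, RLE factors 3515, filterByExpr 2824 of 15206 genes, no filter 3437, groups from the treatment tag 3144, DESeq2 3326, apeglm 2969, the muscle covariate 3616 and the fit without the 3 libraries whose tag differs 3245. The test against 1.5-fold itself gave 1196, 472 higher and 724 lower. With the replicate number as a block there were 3326 (1139 higher and 2187 lower). Replicate numbers mark different mice. With the group mean of each gene taken from the log2 CPM, same-numbered libraries correlated at -0.443 to 0.555 over 6 pairs. Of the Ctrl_RT libraries 2 of 6 were closest to their own number. Ctrl_RT 2 and 4, low in muscle transcripts, correlated at 0.522 to 0.644 with Ctrl_CE 1, 4 and 7, also low in them. With the other Ctrl_CE libraries their correlations were negative. The interaction had 110 DEGs, 2 with groups from the treatment tag, 205 with DESeq2 and 80 with the block. The depot difference gave 3075 DEGs, and 3175 with limma voom and the mouse as a block.

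Of 4941 values of named genes under the alternatives, 4658 kept direction and side of the threshold, 118 fell below it when a library was left out and 144 under the other alternatives, 20 passed it and 1 changed sign. That value was the log2FC of Per1, not called in any setting, which was -0.24 without Ctrl_CE 4 and between that and 0.53 over the libraries left out. Of 1032 list counts under the alternatives 128 moved by more than 1.5 times. The list medians for proliferation (0.05, from -0.10 to 0.25), chemokines (-0.04, from -0.25 to 0.12), the nuclear respiratory chain (-0.01, from -0.02 to 0.02) and secreted factors (-0.02, from -0.13 to 0.19) changed sign over the alternatives. Genes well below 1 CPM rest on few counts, and the cause of each change was not tested.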
